A study of Mus musculus with 10 samples.

Results

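RNA polymerase II (Pol II) was mapped by chromatin immunoprecipitation sequencing (ChIP-seq) in ES-E14TG2a cells, an established mouse embryonic stem (ES) cell line grown with LIF and 10% serum, and in primary mouse embryonic fibroblasts (MEFs). The regions described here are 2802 strong Pol II peaks found in the ES cell list and not in the MEF list, out of 32345 ES Pol II peaks and 46940 peaks in the 8 lists of the series. A peak was taken when it lay on an autosome, was narrower than 4000 bp, had a score at or above the 75th percentile of the ES list (275.15), and had no MEF Pol II peak within 1000 bp. Distances are from edge to edge, positions are 1-based on mm9, and the score is the authors' value, with no scale stated. The fibroblasts were isolated from E12.5 mouse embryos, passaged 3 to 5 times and grown in the same medium without LIF. The labels name no transgene, treatment or strain for either, and describe fixation at 80% confluence. Both Pol II libraries used the N-20 antibody. There was 1 library per antibody and cell type, of unknown read depth, so no replicate error exists and no test between cell types was possible. Intervals are 95% intervals over peaks, cover counting error only, and are exact Clopper-Pearson for shares and taken from order statistics for medians. They treat peaks as independent, although many lie next to one another, and may be too narrow for that reason.

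Pol II transcribes protein-coding genes and many non-coding RNAs. It gathers at promoters, where it often pauses shortly downstream of the start, and spreads at lower density through the bodies of genes that are being transcribed. It is also found at active enhancers. An antibody to the N-terminal part of the largest subunit, such as N-20, recovers Pol II regardless of the phosphorylation of its C-terminal repeats, so paused and elongating enzyme are both mapped. RNA polymerase III (Pol III), mapped in the same series through its subunits POLR3C, POLR3G and POLR3GL, makes tRNAs, 5S rRNA and other short RNAs. The peak lists are on mm9 and the annotation used here is on GRCm38, and positions were not converted. No gene, exon or intron was therefore assigned to any peak, and the markers of ES cells and fibroblasts were not checked.

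The steps of the rule removed most peaks by score. Of all ES Pol II peaks, 8088 reached the score threshold, 7925 of these lay on autosomes, and 6530 were also narrower than 4000 bp. The 1395 strong autosomal peaks of 4000 bp or more are not described here. Among the 6530 strong peaks, 2802 (42.9%, interval 41.7 to 44.1%) had no MEF peak within 1000 bp, and the other 3728, called shared below, had one. In the background of all ES Pol II peaks the share without a MEF peak was 68.4%, and among autosomal peaks under 4000 bp it was 69.2%. These shares are what the rule selected on, and nothing is read from them.

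The share of ES peaks without a MEF peak was lower where the score was higher. It was 85.1% of 7931 peaks below the 25th percentile of the ES scores, 79.0% from there to the median, 65.3% from the median to the 75th percentile, 47.6% between the 75th and 90th percentiles and 31.9% of 1942 peaks above the 90th. The MEF list is shorter, with 13306 peaks against 32345, and whether a peak is missing from it for lack of Pol II or for lack of depth cannot be told apart. When only MEF peaks at or above the median MEF score were counted, 3722 strong ES peaks qualified in place of 2802.

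Members had scores from 275.15 to 3206.98, with a median of 436 (interval 424 to 447), while shared strong peaks had a median of 523 (512 to 536). The members closest to the score threshold scored 275.15 (chr7:13466159-13466716), 275.32 (chr6:4682763-4683793) and 275.33 (chr5:33987826-33989762). Just below the threshold lay ES-only peaks of 275.12 (chr7:52554289-52557685), 275.07 (chr10:44904330-44906268) and 275.02 (chr7:134703979-134706033). The threshold thus falls within a run of near-equal scores. At the distance limit, members at 1008 bp (chr10:75319372-75321611), 1013 bp (chr8:77634882-77638689) and 1018 bp (chr19:53454923-53458075) from a MEF peak stood beside excluded peaks at 995 bp (chr11:116397009-116399954 and chr11:29595838-29598913) and 991 bp (chr11:97023861-97026313). At the width limit, the peaks just excluded were 4003 bp (chr9:109795425-109799427), 4005 bp (chr10:110918664-110922668) and 4006 bp wide (chr4:135916229-135920234).

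The highest-scored members lay at chr9:102619302-102622801 (score 3206.98, width 3500 bp) and chr1:84863288-84867101 (3158.55, 3814 bp). The nearest MEF Pol II peaks were 42.1 kb and 26.2 kb away. A further 12 members had a score of exactly 3100, a value also held by 67 shared peaks, so ranks among these peaks are tied. The widest of the 12 were chr6:148938716-148942676 (3961 bp), chr17:71264362-71268223 (3862 bp) and chr18:36412165-36415946 (3782 bp), which lay 43.8, 76.4 and 23.9 kb from a MEF peak. They were followed by chr2:25074159-25077814 (3656 bp), at only 2004 bp from a MEF peak, and chr13:79101254-79104836 (3583 bp), at 1252.88 kb from one. Next came chr7:52715075-52718344 (3270 bp), at 1627 bp from a MEF peak. The last of the 10 highest-ranked members were a pair 2238 bp apart on chromosome 9, at chr9:65042347-65044938 and chr9:65047177-65050383, 96.5 and 91.1 kb from a MEF peak. The strongest members therefore ranged from direct neighbours of a MEF peak to sites over 1 Mb away from any.

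Members were spread over all 19 autosomes, largely in proportion to the other strong peaks. Their density was 1.17 per Mb of the span covered by the lists, against 1.55 for shared peaks. The highest density was on chromosome 11, with 254 members or 2.14 per Mb, followed by chromosome 19 (1.69) and chromosome 8 (1.55). The lowest was on chromosome 18, with 61 members or 0.695 per Mb, and chromosome 3 had 0.747. Shared peaks were also densest on chromosome 11, at 2.96 per Mb. Across the 19 chromosomes the densities of members and shared peaks had a Pearson r of 0.94 and a Spearman rho of 0.86, as a description of points that share both libraries.

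**Figure D1:**
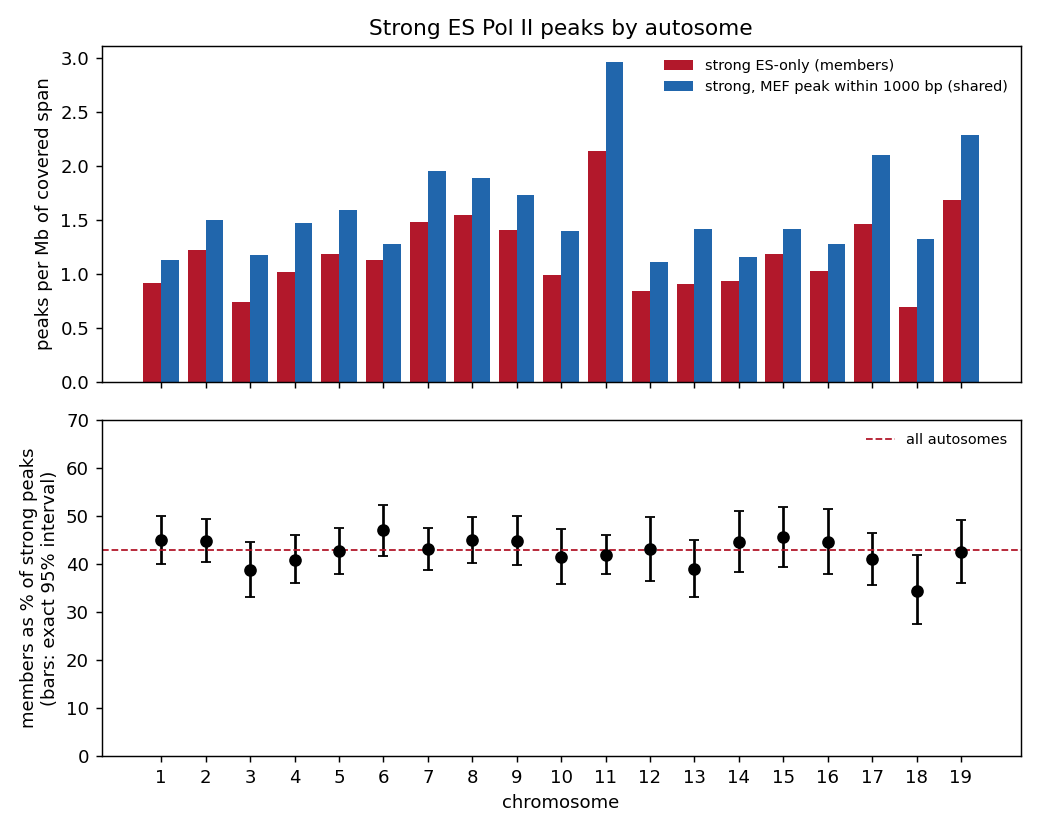
Upper panel: peaks per Mb of covered span for members (red) and shared strong ES Pol II peaks (blue) on each autosome. Lower panel: members as a percentage of all strong peaks with exact 95% intervals, and the value over all autosomes (42.9%) as a dashed line. Density peaks on chromosome 11 for both classes, and only the interval of chromosome 18 lies wholly below the dashed line.

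When members were counted as a share of the strong peaks of each chromosome, the differences between chromosomes were small. Chromosome 6 had the highest share, 47.0% (41.7 to 52.4%), with 166 members and 187 shared peaks. Chromosome 18 had the lowest, 34.5% (27.5 to 42.0%), with 61 members and 116 shared peaks. The intervals of 18 of the 19 chromosomes held the overall share of 42.9%, and that of chromosome 18 did not. The gene-dense chromosome 11, in spite of its density, had a share of 41.9% (38.0 to 46.0%).

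Over 2392 windows of 1 Mb, members and shared peaks were both unevenly distributed. There were no members in 1385 windows (57.9%), while 47 windows held 8 or more. Shared peaks were missing from 1180 windows, and 73 held 8 or more. The variance of the count over its mean was 3.50 for members and 4.04 for shared peaks, at mean counts of 1.17 and 1.55. This ratio also depends on the mean count, so it does not rank the classes by unevenness. Members and shared peaks occurred together in 781 windows. A further 226 windows had members and no shared peak, and 431 had shared peaks and no member. The fullest window, chr13:44372044-45372043, held 19 members and 0 shared peaks. It was followed by chr14:21650151-22650150 with 15 members and 3 shared peaks and chr7:29151499-30151498 with 14 members and 8 shared peaks. These counts leave out peaks of 4000 bp or wider. In the first window, a wide ES peak of 8834 bp (score 3100) did have a MEF peak within 1000 bp.

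Members were wider than shared peaks. Their median width was 2115 bp (2067 to 2169), against 1583 bp (1558 to 1623) for shared strong peaks, 828 bp (822 to 833) for ES-only peaks below the threshold and 955 bp for the whole ES list. Widths of 2 kb or more were found in 54.3% (52.4 to 56.1%) of members and 33.0% (31.5 to 34.5%) of shared peaks. Widths under 1 kb were found in 9.28% (8.23 to 10.4%) and 15.6% (14.5 to 16.8%), respectively. Because the rule fixes an upper limit of 4000 bp and wider peaks tend to score higher, the comparison was also made at matched score.

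In each quartile of the score of strong peaks the members were wider. In the lowest quartile (873 members and 760 shared peaks) the median widths were 1792 bp (1728 to 1864) and 1217 bp (1168 to 1268). In the second they were 2055 and 1389 bp, and in the third 2403 and 1660 bp. In the highest quartile (521 members and 1112 shared peaks) they were 2588 bp (2472 to 2716) and 2130.5 bp (2059 to 2224). The intervals of both classes, which treat peaks as independent, did not overlap in any quartile. The median of the members in a quartile was above that of the shared peaks in the next one. Across members, width and score had a Spearman rho of 0.31, and across shared peaks 0.41.

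**Figure D2:**
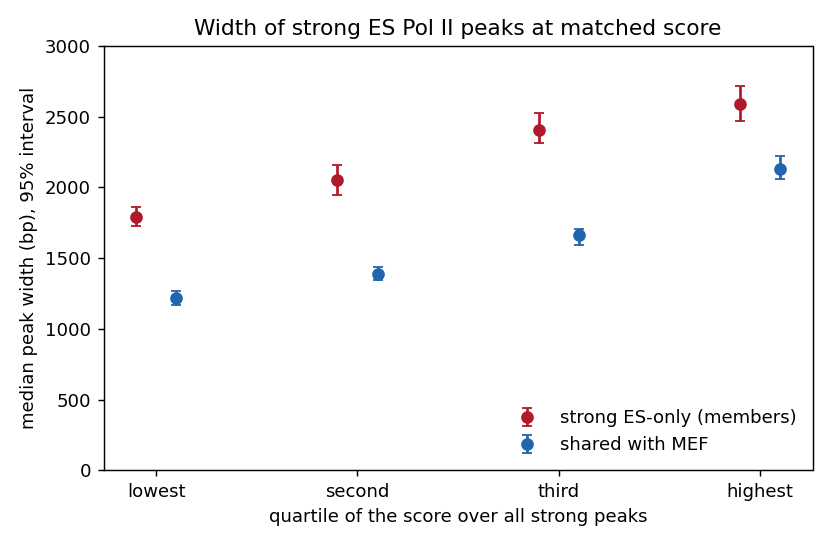
Median width in bp (points) with its 95% order-statistic interval (bars) for members (red) and shared strong peaks (blue) in 4 quartiles of the score over all strong ES Pol II peaks. Members run from 1792 to 2588 bp and shared peaks from 1217 to 2130.5 bp, with the members above in every quartile.

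The direction of this width difference was the same in each of 8 other settings, and its size was not. It was 532 bp as chosen, 115 bp among peaks narrower than 2000 bp and 685 bp without the width limit. At the extremes of width, the widest members were chr7:29728493-29732485 (3993 bp), chr2:69706094-69710085 (3992 bp), chr12:85015025-85019008 (3984 bp), chr5:137816392-137820370 (3979 bp) and chr8:32271978-32275956 (3979 bp). The first of these had its nearest ES Pol II peak at 1385 bp, and the other 4 had one at 16 to 391 bp. The narrowest members were chr14:60243885-60244327 (443 bp), chr12:17025671-17026185 (515 bp), chr5:128946838-128947369 (532 bp), chr2:157422867-157423406 (540 bp) and chr19:28909312-28909856 (545 bp). Their nearest ES Pol II peaks lay 1206 to 45620 bp away. The lowest of these distances is below the 1385 bp of the widest member, so the ranges of these few peaks overlap.

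Members often lay next to other Pol II peaks of the ES list. The median distance from a member to the nearest ES Pol II peak of any score was 518.5 bp (443 to 585), against 3237 bp (2749 to 3853) for shared peaks. A neighbour within 1000 bp was found for 58.1% (56.3 to 60.0%) of members and 38.3% (36.7 to 39.9%) of shared peaks, with weaker ES-only peaks between them at 46.8% (46.1 to 47.5%). Within 5 kb the shares were 74.9% of members, 55.0% of shared peaks and 70.4% of weaker ES-only peaks. Runs of ES peaks at most 1000 bp apart reached a peak of 4000 bp or wider for 15.3% (14.0 to 16.7%) of members and 5.58% (4.86 to 6.37%) of shared peaks. Weaker ES-only peaks were between them at 9.09% (8.68 to 9.52%). Such a run also reached a MEF peak, within 1000 bp of any of its peaks, for 330 members (11.8%, 10.6 to 13.0%), so that these members had no MEF peak nearby and their run of ES peaks did. The same held for 8.25% (7.86 to 8.66%) of weaker ES-only peaks.

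Among themselves, members were grouped at short range. The nearest other member was a median of 36.2 kb away (32.8 to 40.5), against 52.7 kb (49.1 to 57.1) between shared peaks, although there were fewer members. Another member lay within 1000 bp of 16.8% of members, and another shared peak within 1000 bp of 11.7% of shared peaks, so many close neighbours were adjacent peaks. Within 5 kb the shares were 25.3% (23.7 to 27.0%) and 15.8% (14.7 to 17.0%). Within 50 kb the shares were 54.9% (53.0 to 56.7%) and 48.8% (47.1 to 50.4%). At 200 kb they were 76.2% (74.6 to 77.8%) and 77.6% (76.2 to 78.9%), so the difference was limited to shorter distances. Over all strong peaks, the share with another strong peak of either class within 50 kb was 68.0%. The 18152 weaker ES-only peaks had another of their own class within 5 kb for 59.5% and within 50 kb for 87.4%.

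The difference within 50 kb depended on the score and the setting. As chosen, the shares of members and shared peaks were 53.2% and 44.5% in the lowest score quartile. In the highest score quartile they were 57.8% and 57.3%. When ES peaks at most 1000 bp apart were merged first and the width limit was lifted, 43.9% (42.0 to 45.8%) of members and 50.6% (49.0 to 52.1%) of shared peaks had a neighbour of their class within 50 kb. With merging and the width limit kept, the shares were 28.4% and 33.5%. The order of both classes was thus reversed in both settings with merging. It was also reversed at a score above the 90th percentile (24.7% and 33.0%), with peaks narrower than 2000 bp (26.5% and 31.7%) and with a MEF limit of 5000 bp (50.4% and 56.1%). The number of peaks in a class also bears on this share. Members made up 42.9% of strong peaks as chosen. They were 34.5% after merging and 39.0% after merging without the width limit. At the 90th percentile, under 2000 bp and with the 5000 bp limit they were 31.9%, 33.9% and 35.8%. Whether class size or the definition of a peak reversed the order was not tested.

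**Figure D3:**
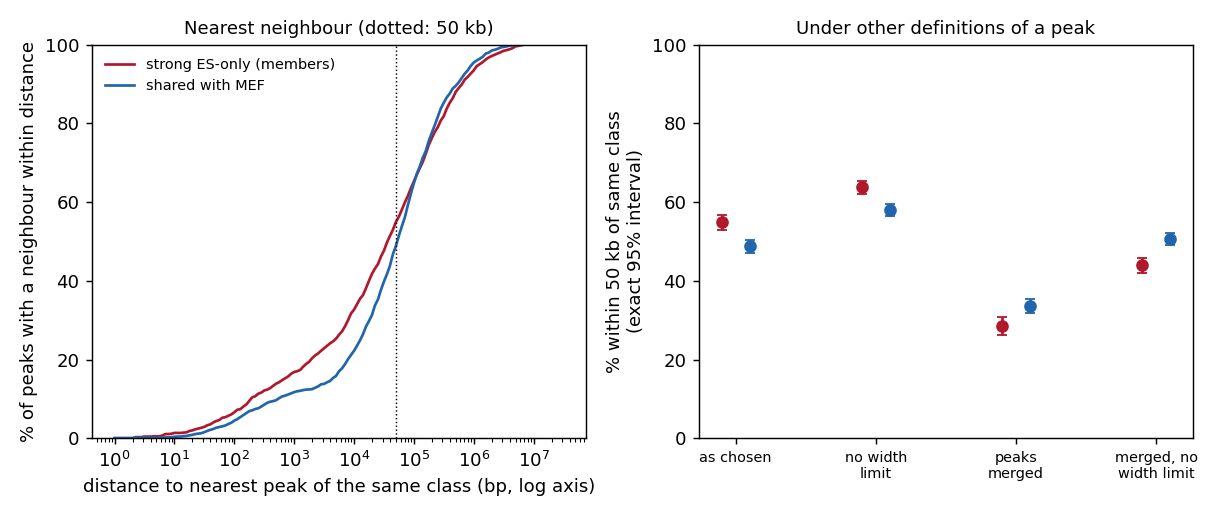
Left: percentage of peaks (y) with another peak of the same class within a given distance (x, log axis, bp) for members (red) and shared strong peaks (blue). Right: percentage within 50 kb with exact 95% intervals under 4 definitions of a peak, where members are above shared peaks as chosen (54.9% and 48.8%) and below them after merging (28.4% and 33.5%).

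Members had another member as their closest strong neighbour more often than shared peaks did. The nearest strong peak was a member for 56.1% (54.2 to 58.0%) of members and for 36.3% (34.7 to 37.8%) of shared peaks, while members made up 42.9% of strong peaks. With adjacent peaks merged and no width limit, the shares were 44.4% (42.5 to 46.4%) and 36.2% (34.7 to 37.7%), with members at 39.0% of strong peaks, so this difference kept its direction and was smaller. Where the nearest strong peak lay within 5 kb, it was a member for 76.5% (73.6 to 79.2%) of 913 members and 26.7% (23.7 to 30.0%) of 786 shared peaks. Members were the larger class there, so 42.9% is not the base share at this distance. Adjacent ES peaks are measured against the same MEF peaks, so the rule itself tends to give neighbours the same class. These shares are therefore a description only. A shared strong peak lay within 50 kb of 48.3% (46.4 to 50.1%) of members. At the other end, 108 members (3.85%, 3.17 to 4.63%) had no other Pol II peak of either cell type within 50 kb.

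Joined at 50 kb, the 2802 members formed 1264 single peaks, 366 pairs, 164 groups of 3 or 4 and 40 groups of 5 or more. The 40 groups held 271 members (9.67%), and the shared peaks formed 47 such groups with 302 peaks (8.10%). The groups of members lay on 17 chromosomes and spanned 32.5 to 207 kb, with a median of 76.6 kb. ES Pol II peaks of any kind covered a median of 47.7% of a group's span, from 20.1 to 90.4%. No MEF Pol II peak lay in the span of 16 groups, and no shared strong peak in that of 22. After merging of adjacent peaks under the same width limit, 3 groups of 5 or more were left, against 14 of shared peaks. After merging without the width limit there were 26, against 62 of shared peaks.

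The group with most members lay at chr13:44835220-45036452, with 18 members of 1870 to 3970 bp and scores of 277 to 638. Its 201 kb also held 41 weaker ES-only peaks and 7 ES peaks of 4000 bp or wider, the widest of 11529 bp. ES Pol II peaks covered 76.8% of it. No MEF peak lay inside, and the nearest was 8222 bp beyond its edge. In all, 66 ES peaks lay in this span, and the members among them were below the 90th percentile of the ES scores (660).

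The second, at chr5:53857654-54064931, held 12 members with scores of 283 to 1099 in 207 kb, along with 22 weaker ES-only peaks, 6 wide ES peaks and 2 MEF peaks. The groups at chr15:79651190-79845673 and chr4:130195407-130307809 held 10 members each. In the first of these, ES peaks covered 31.5% of 194 kb and the highest member score was 2252. In the other, they covered 71.4% of 112 kb and the highest score was 946. Each of these 2 groups had 1 MEF peak in its span, with MEF scores of 58.6 and 253.

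**Figure D4:**
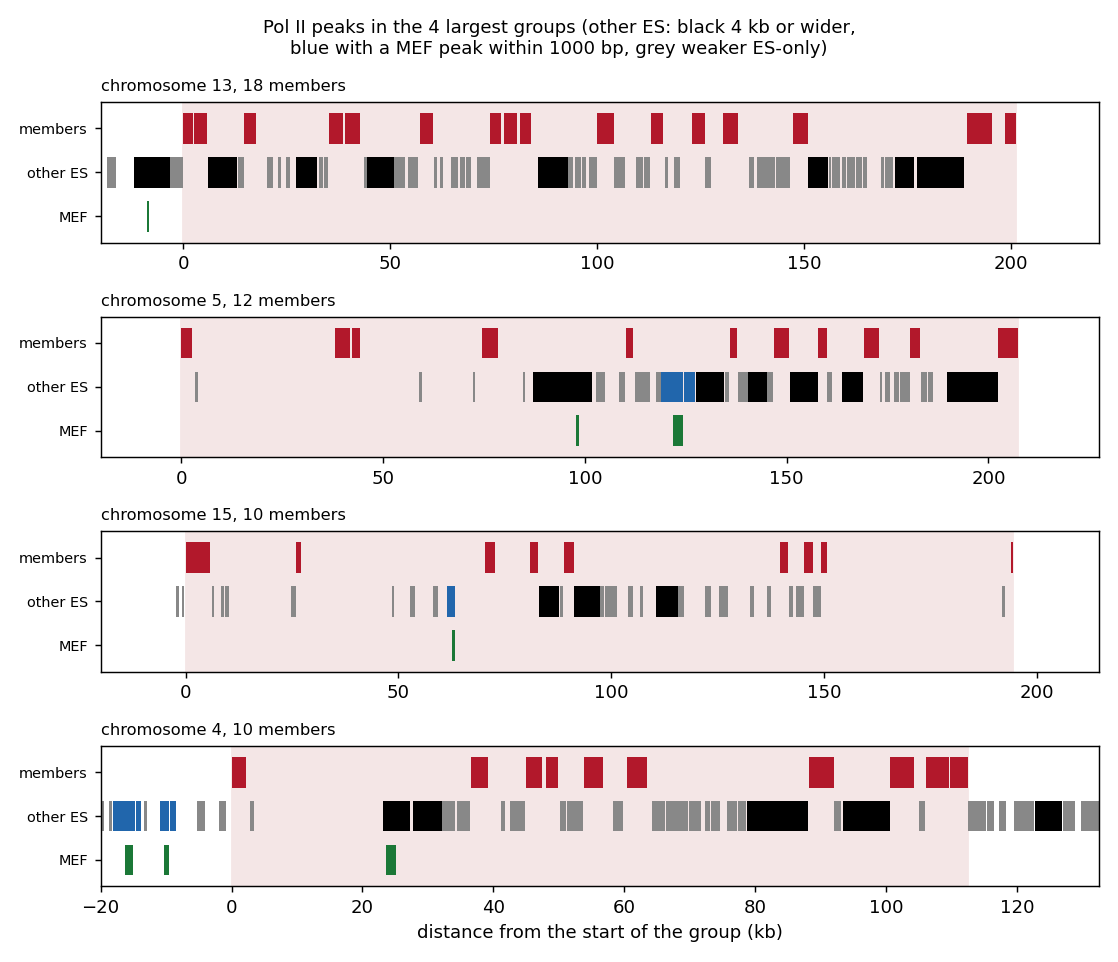
Pol II peaks in the 4 groups with most members, by distance in kb from the start of each group, with 20 kb on either side (shaded: the group). Rows show members (red), other ES peaks (black 4 kb or wider; below that width, blue with a MEF peak within 1000 bp and grey weaker ES-only peaks) and MEF peaks (green). The group of 18 members on chromosome 13 is filled with ES peaks over 201 kb without a MEF peak inside. A MEF peak lies at the wide ES peak just left of it.

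Groups of 9 members were found at chr6:148861159-148967619, chr12:87810716-87872699, chr7:140160829-140303014 and chr16:8695739-8865675. That on chromosome 12 was the most densely covered of the 40, with ES peaks over 90.4% of 62.0 kb, no MEF peak inside and the nearest 226705 bp away. That on chromosome 6 held a member of score 3100 and 1 MEF peak of score 54.8, close to the minimum of 50 in the MEF list. On chromosome 7, 47 weaker ES-only peaks and no MEF peak lay between the 9 members, and on chromosome 16 there were 31 weaker peaks and 2 MEF peaks. The groups of 8 at chr7:28066329-28181330 and chr17:37083060-37146654 had 2 and 3 MEF peaks in their spans. Another group of 8, at chr14:22402114-22483832, had 1 MEF peak of score 53.8 in its span. The spans of the largest groups thus included some with Pol II called in ES cells alone and others with MEF peaks among the members. A span without a MEF peak can still adjoin one, as on chromosome 13.

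Most members were not far from Pol II in MEFs. The median distance to the nearest MEF Pol II peak was 19.9 kb (18.5 to 21.1), with the middle of the distribution from 7.85 kb at the 25th percentile to 51.2 kb at the 75th. Between 1 and 2 kb lay 146 members (5.21%), between 2 and 5 kb 317 (11.3%), between 5 and 10 kb 416 (14.8%) and between 10 and 50 kb 1205 (43.0%). Beyond 50 kb were 718 members (25.6%, 24.0 to 27.3%), of which 163 were more than 200 kb and 18 more than 1 Mb away. The nearest MEF peak itself overlapped an ES Pol II peak for 2272 members (81.1%, 79.6 to 82.5%). Counted once each, 1949 MEF peaks were nearest to a member and 79.2% of them overlapped an ES peak, against 62.1% of all 12962 autosomal MEF peaks. MEF peaks picked by nearness to ES peaks may overlap ES peaks more often for that reason alone. The same count was not made for weaker ES-only peaks, so the contrast is not read as a trait of the members.

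Weaker ES-only peaks lay at nearly the same distance, with a median of 19464 bp (19001 to 19988) over 18152 peaks. Within 10 kb were 31.4% (29.7 to 33.1%) of members and 31.1% (30.4 to 31.7%) of the weaker peaks. Beyond 200 kb were 5.82% (4.98 to 6.75%) and 4.76% (4.45 to 5.08%). Among members, the score showed no trend with this distance (Spearman rho 0.0023, 2802 peaks), and the median score was 436 within 5 kb, 437 from 5 to 50 kb and 435 beyond 50 kb. Width did differ, with medians of 2247 bp (2107 to 2341), 2175 bp (2107 to 2235) and 1860.5 bp (1722 to 1962), respectively. Members far from any MEF peak were thus as high in score as the near ones and narrower.

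The members farthest from any MEF peak lay at chr12:96933252-96933942 (2562.67 kb), chr5:60338157-60339046 (2229.15 kb), chr10:102830949-102832510 (2178.79 kb), chr1:115825659-115828708 (2063.81 kb) and chr4:91042685-91043756 (1851.2 kb). Their scores were 280, 320, 353, 474 and 553. The nearest other member was 4513257 to 4898253 bp from each of them. On chromosomes 12 and 10 the nearest other ES Pol II peak was also more than 2 Mb away, whereas on chromosomes 5, 1 and 4 another ES peak lay 16, 215 and 3556 bp away.

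**Figure D5:**
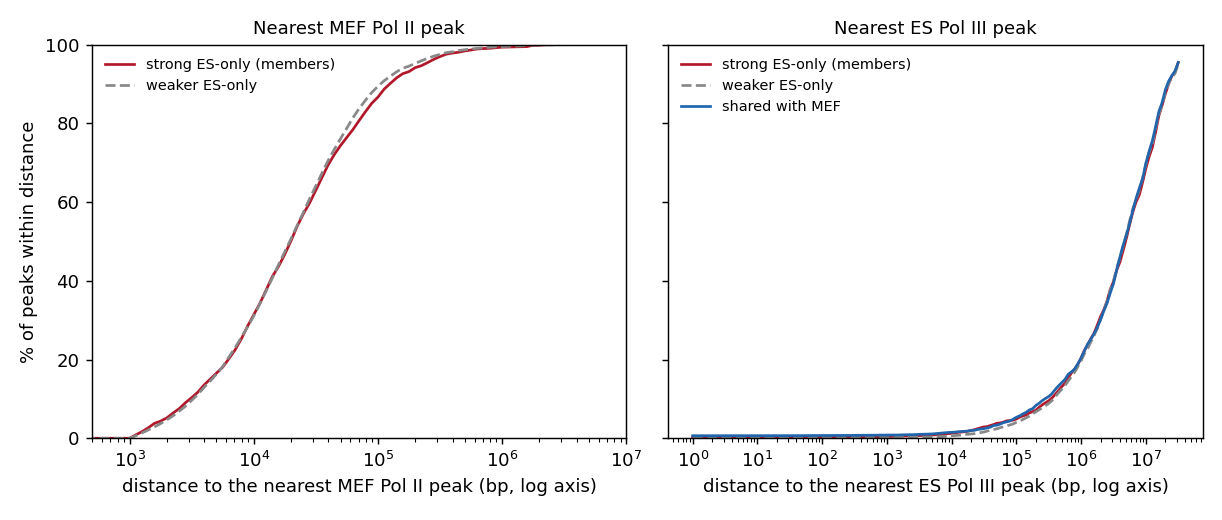
Percentage of peaks (y) within a given distance (x, log axis, bp) of the nearest MEF Pol II peak (left; members red, weaker ES-only peaks dashed grey) and of the nearest ES Pol III peak (right; shared peaks also, blue). The curves of members and weaker ES-only peaks nearly coincide on the left, with medians of 19.9 and 19.5 kb, and all 3 classes nearly coincide on the right, with medians of 4.67 to 4.89 Mb.

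Pol III was rare near the members. The median distance to the nearest ES Pol III peak of any subunit was 4.89 Mb (4.54 to 5.20), against 4.67 Mb (4.39 to 4.99) for shared peaks and 4.69 Mb (4.57 to 4.83) for weaker ES-only peaks, with overlapping intervals. An ES Pol III peak within 1000 bp was found for 12 members (0.428%, 0.221 to 0.747%) and 30 shared peaks (0.805%, 0.544 to 1.15%). In the background of all autosomal ES Pol II peaks under 4000 bp the share was 0.403%, and among strong peaks 0.643%. The intervals of members and shared peaks overlap, and the share of the members is near the background. It was 0.809% after merging of adjacent ES peaks, 0.703% under 2000 bp and 0.264% at a score above the median. No member had a MEF Pol III peak without an ES Pol III peak, which allows a share of up to 0.132%.

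The 12 members with Pol III fell into 2 kinds. At 4 of them, POLR3C and POLR3GL were called in both ES cells and MEFs, although Pol II was called in ES cells only. At the other 8, POLR3C of ES cells was the only Pol III call of the series within 1000 bp. POLR3G of ES cells was called at 0 of the 12 members and at 0 of the 30 shared peaks with Pol III. A MEF Pol III peak was present at 33.3% (9.92 to 65.1%) of the 12 members and at 25 of the 30 shared peaks with Pol III (83.3%, 65.3 to 94.4%). ES POLR3C scores near the 12 had a median of 448.5, against 1391 near the 30 shared peaks and 1547 over the POLR3C list.

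The first kind was at chr5:125889393-125893085 (Pol II score 556), where POLR3C scored 2561 in ES cells and 255 in MEFs, and POLR3G was called in MEFs at 35. The nearest MEF Pol II peak was 18163 bp away. At chr10:62892010-62893297 (Pol II score 310) POLR3C scored 1794 in ES cells and 243 in MEFs, and POLR3G was called in MEFs at 25. The nearest MEF Pol II peak was 42330 bp away. Scores of different lists are not on a common scale. At both sites, POLR3C and POLR3GL were called in both cell types, POLR3G in MEFs only and Pol II in ES cells only. The ES POLR3G list gave a call at 0 of the 12 members and 0 of the 30 shared peaks with Pol III. The missing ES call therefore does not set these sites apart, and a difference in POLR3G between the cell types was not tested.

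The other 2 of this kind lay nearer to MEF Pol II. At chr11:68922884-68924667 (Pol II score 993) POLR3C scored 1586 in ES cells and 178 in MEFs, POLR3G was called in neither, and a MEF Pol II peak was 13869 bp away. At chr13:23517044-23518686 (Pol II score 326), which held 2 POLR3C peaks of ES cells (highest score 1040), a MEF Pol II peak was only 1196 bp away. That member lies just past the distance limit of 1000 bp.

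Of the 8 members with ES POLR3C alone, the strongest Pol II peak was at chr9:78215769-78218516 (score 2088), where POLR3C scored 299 and lay 972 bp from the Pol II peak. At chr11:116565522-116567060 Pol II scored 1363 and an overlapping POLR3C peak 390. The remaining 6 had Pol II scores of 278 to 448. They were chr2:168136440-168137185 (POLR3C 585), chr6:142968473-142970717 (416), chr7:3192986-3194223 (325), chr7:150691814-150692927 (351), chr9:116336091-116337271 (442) and chr11:116485300-116486212 (455, at 928 bp). All 8 POLR3C scores were below the median of that list. Whether POLR3C was at these 8 sites as part of Pol III was not tested.

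Among the 40 groups of 5 or more members, 3 had an ES Pol III peak within their span, and they were singled out after their values were seen. They were chr17:37083060-37146654 (8 members), chr7:3151499-3224916 (7 members) and chr11:68795208-68924667 (6 members). The group on chromosome 7 had no MEF Pol II peak in its 73.4 kb, and the other 2 had 3 and 6. Those on chromosomes 7 and 11 each include a member named above for its overlap with POLR3C. The same count for groups of shared peaks is not given here, so the 3 are not read as a trait of the members.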

How the data were processed

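Peak lists of 8 ChIP-seq libraries of ES-E14TG2a cells and primary MEFs were used and the inputs were not used here. Per the submitters' processing notes, CASAVA 1.8, Bowtie 1.12, SAMtools and HOMER were used with build mm9. The Pol II peaks are named as MACS peaks. The deposited score of each peak has no stated scale. For calling, the threshold and control are not stated, nor is the depth. Scores ranked peaks within a list only. Starts were read as 0-based. The 75th percentile was taken over the whole ES list by linear interpolation, and densities are per Mb between the first and last base of any list. The members, lists and comparisons were chosen with earlier results of these data known. Named loci follow a rule: the 10 highest scores, the 5 farthest, widest and narrowest members, the 10 largest groups, members with Pol III within 1000 bp, and the 3 peaks on each side of a threshold. A group tied in members with the last of the 10 largest is named too. Distance and grouping functions were tested on simulated data. Python 3.11.15, numpy 2.4.6, scipy 1.17.1 and pandas 2.3.3 were used.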

Additional observations from a re-analysis of the deposited data

How the results depend on the processing

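No paired analysis was possible because each antibody and cell type has 1 library. The number of members went from 2802 to 619 at the 90th percentile, 7954 at the median, 1281 under 2000 bp and 1484 after merging of ES peaks at most 1000 bp apart. Their share of strong peaks (42.9%) was 31.9% at the 90th percentile, 55.2% at the median, 46.7% with overlap of 1 bp, 35.8% with a MEF limit of 5000 bp, 44.6% without the width limit, 33.9% under 2000 bp, 34.5% after merging and 57.0% with MEF peaks at or above their median score, an alternative chosen after seeing the data. The share with another member within 50 kb (54.9%) was 24.7%, 75.9%, 50.4% (MEF limit of 5000 bp), 63.8%, 26.5%, 28.4% and 59.3% in these settings, overlap aside, and 41.8% within 20 kb and 76.2% within 200 kb. Groups of 5 or more (40) numbered 1, 351, 79 (no width limit), 0 (under 2000 bp), 3 (merged) and 65 (MEF median), and 20 and 125 when joined at 20 and 200 kb. The median width (2115 bp) was 2544, 1433, 2470 (no width limit), 1383 (under 2000 bp), 1890 (merged) and 2042 bp (MEF median). The median distance to MEF Pol II (19877.5 bp) was 16944.5 bp with overlap of 1 bp, 26164 bp with a limit of 5000 bp, 23789 bp under 2000 bp, 23699 bp after merging and 21796 bp between centres. The share with Pol III within 1000 bp was 0.809% after merging, and the median distance to Pol III stayed within its interval in every setting run. The highest share of a chromosome (47.0%, chromosome 6) was 37.1% (chromosome 15), 61.2% (chromosome 6), 40.9% (chromosome 16, MEF limit of 5000 bp), 40.8% (chromosome 15, merged) and 61.6% (chromosome 14, MEF median), so which chromosome leads is not stable. Comparisons with shared peaks under other settings were added after seeing the data. The difference in the share within 50 kb (6.12 points) was -8.24 at the 90th percentile, -5.70 with a limit of 5000 bp, -5.27 under 2000 bp, -5.10 after merging, -6.67 after merging without the width limit, 15.1 at the median and 20.5 with the MEF median. The class sizes also change with these settings. The difference in median width (532 bp) was 460, 188, 439 (5000 bp), 685 (no limit), 115 (under 2000 bp), 297.5 (merged) and 1061 bp (merged, no limit). The cause of these changes was not tested. Read depth is unknown, and a peak missing from the MEF list does not show that Pol II is absent there.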
